A study of Mus musculus with 121 samples.

Results

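The kinesin genes of 6 transplanted mouse tumours were followed over dose and time after local irradiation. Members were all array probes whose single annotated symbol begins with Kif and a digit: 44 probes of 35 genes, among 21615 probes of 18069 genes with 1 symbol. For each gene the brightest probe with a value on at least 90% of arrays was used. Such a probe existed for 31 genes, and 30 of them passed the filter on dim probes and were tested among 12962 genes. By their known roles 9 tested genes are mitotic (Kif2c, Kif4, Kif11, Kif18a, Kif18b, Kif20a, Kif20b, Kif22, Kif23). Another 12 carry cargo (Kif1a, Kif1b, Kif1c, Kif3a, Kif3b, Kif3c, Kif5b, Kif5c, Kif13a, Kif13b, Kif21a, Kif21b), and 9 have other or less known roles (Kif2a, Kif4-ps, Kif6, Kif7, Kif9, Kif12, Kif26a, Kif26b, Kif27).

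Kinesins are motor proteins that bind microtubules and hydrolyse ATP. Mitotic kinesins slide spindle microtubules apart, move chromosomes, shorten microtubule ends and build the midzone needed for cytokinesis, and their genes are transcribed mainly in the G2 and M phases, so that dividing tumours hold much of their RNA. Transport kinesins walk along microtubules with vesicles, mitochondria or the particles that build cilia, in dividing and resting cells alike.

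Tumours had been transplanted into the hind legs of C3H/HeMs male mice and irradiated there with 1 dose. By their labels, 8520 is a fibrosarcoma induced by radiation and nfsa a fibrosarcoma that arose spontaneously. Breast tumours are represented by mmca and mca4 (both mammary carcinomas), and scc7 and nrs1 are squamous cell carcinomas. Gamma rays were given at 30, 50 or 70 Gy, with unirradiated (0 Gy) tumours of 8520, nfsa, mmca and mca4 at day 1 and of mmca also at day 9, and tumours were taken from day 1 up to day 41. Carbon ions were given at 30 Gy, with unirradiated mmca and mca4 at hour 0 and tumours taken from hour 6 up to day 42. The gamma experiment had 81 arrays of 1 colour and the carbon experiment 40. Together they made 54 groups, 41 with 2 arrays and 13 with 3. Whether the arrays of a group came from separate animals is not stated in the labels, so p-values may measure only technical spread.

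Values below are log2 of the deposited intensity, where a change of 1 is a 2-fold change. Levels of different kinesin genes are not set against each other. Marker sums add the intensities of several probes, so bright probes weigh most in them. Changes are differences of group means with the standard error (SE) of 1 limma fit over all arrays. A gene rose or fell where its p, adjusted over all genes tested by Benjamini and Hochberg, was under 0.05. Irradiated groups of a tumour were set against the same unirradiated arrays, so comparisons of 1 tumour share their controls. In whole tumours, fewer cells of a type and less RNA per cell cannot be told apart.

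Arrays of a group correlated at r = 0.964 to 0.998 over all genes, and the median SD of a tested kinesin within groups was 0.0813 at gamma day 1, 0.142 in later gamma groups and 0.0732 after carbon ions. Array medians lay between 1.04 and 1.85 on the intensity scale, and 9.99 to 18.6% of probes had no value on gamma arrays against 0.541 to 4.92% on carbon arrays. The summed intensity of 5 measured epithelial markers was 149 to 337 in the mammary carcinomas and 824 to 1223 in nrs1. It was 0.956 to 5.48 in the fibrosarcomas and 2.51 to 4.81 in scc7, so scc7 lay near the fibrosarcomas although its label names a squamous cell carcinoma. Cdkn1a, the p53 target that inhibits cyclin-dependent kinases, rose at gamma day 1 by 2.91 in 8520, 1.80 in nfsa, 1.17 in mmca and 2.11 in mca4.

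The 5 genes not tested were Kif14, a cytokinesis kinesin whose probe was dim (mean -1.85), Kif2b with a value on 36.4% of arrays, the neuronal motor gene Kif5a on 34.7%, the dendritic and ciliary motor gene Kif17 on 51.2%, and Kif19a on 84.3%. Just inside the 90% limit were Kif7 on 94.2% of arrays and Kif21a on 95.9%, and just outside were Kif19a and the dimmer probe of Kif21a, each on 84.3%.

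Promoter sequences are shown because genes of the cell cycle's late phases often hold 2 elements near their start, the CHR (TTTGAA) and the CCAAT box (CCAAT). Both were searched on both strands from 250 bases before to 50 bases after each start in the RefSeq promoter table (GRCm38.p6). The 3 mitotic genes Kif11, Kif22 and Kif23, the transport gene Kif5c and the gene Kif26b are printed 5′ to 3′ along the gene, as the 120 bases before the start, with capitals for TTTGAA or its reverse TTCAAA and for CCAAT or its reverse ATTGG. Kif11 lies at chr19:37376262-37376381 (plus strand), Kif22 at chr7:127042421-127042540 (minus), Kif23 at chr9:61946800-61946919 (minus), Kif5c at chr2:49619166-49619285 (plus) and Kif26b at chr1:178529005-178529124 (plus).
Kif11: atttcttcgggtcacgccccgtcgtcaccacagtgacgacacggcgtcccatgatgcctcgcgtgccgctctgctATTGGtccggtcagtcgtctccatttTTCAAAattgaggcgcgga
Kif22: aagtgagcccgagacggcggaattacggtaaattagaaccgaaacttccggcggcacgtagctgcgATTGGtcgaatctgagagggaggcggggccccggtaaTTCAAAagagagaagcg
Kif23: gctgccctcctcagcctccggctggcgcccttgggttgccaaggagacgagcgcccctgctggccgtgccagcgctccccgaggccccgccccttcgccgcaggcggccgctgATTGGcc
Kif5c: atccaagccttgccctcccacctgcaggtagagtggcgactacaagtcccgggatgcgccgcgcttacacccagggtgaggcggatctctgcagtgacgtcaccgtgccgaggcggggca
Kif26b: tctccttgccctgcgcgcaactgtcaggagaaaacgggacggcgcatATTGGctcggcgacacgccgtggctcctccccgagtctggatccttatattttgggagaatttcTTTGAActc

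The CHR letters were in 17.9% of all 32851 promoter windows and the CCAAT letters in 37.4%. Among tested kinesins with a window, the CHR letters were in 7 of 8 mitotic genes (not in Kif18a), 1 of 9 transport genes (Kif1a) and 2 of 8 others (Kif26b and Kif27). The CCAAT letters were in 5 of 8 mitotic genes (Kif4, Kif11, Kif18b, Kif22, Kif23), 3 of 9 transport genes (Kif1b, Kif3a, Kif3b) and 3 of 8 others. Kif23 holds its CHR letters outside the bases printed. A match is a description of letters, not of binding. Kif26b is shown because it carries both sets of letters and rose at day 20 after carbon ions, where the mitotic genes with both fell.

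**Figure D1:**
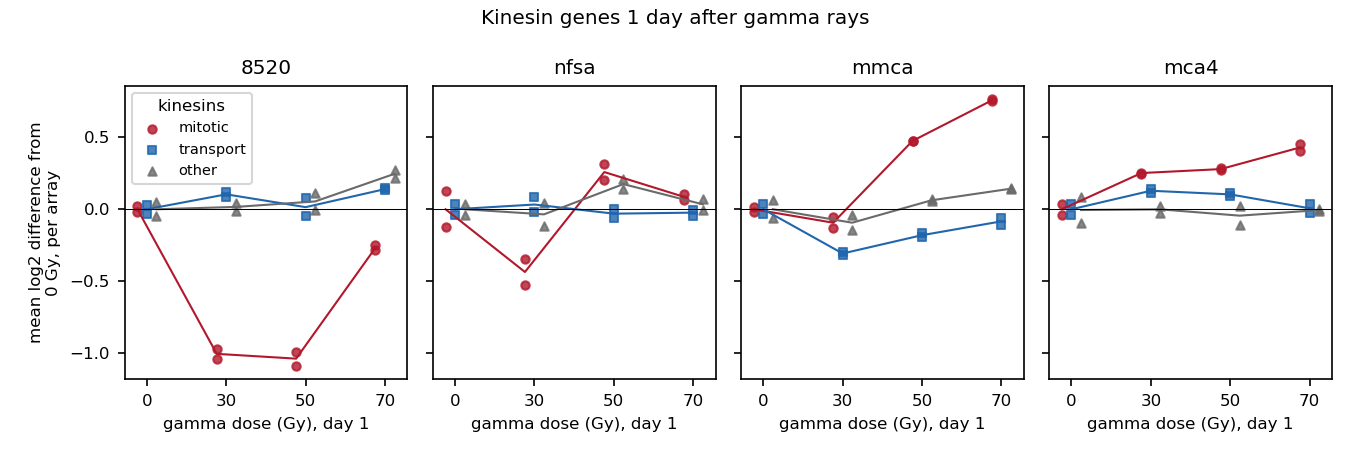
Mean log2 difference from the 0 Gy arrays over the tested mitotic, transport and other kinesins (vertical axis, log2) against gamma dose at day 1 (horizontal axis, Gy) in 8520, nfsa, mmca and mca4; points are single arrays and lines join group means. The mitotic mean of 8520 lies near -1.0 at 30 and 50 Gy and at -0.28 and -0.25 on the 70 Gy arrays, while the mean of mmca lies above 0 at 50 and 70 Gy.

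At day 1 after gamma rays the mitotic kinesins fell in the fibrosarcoma 8520. Averaged over 30, 50 and 70 Gy, 8 of 9 fell and none rose, with a median of -0.55, where 32.4% of all genes fell, 18.5% rose, 50.9% were called in either direction and the median gene was at -0.105. Kif23, the centralspindlin motor gene needed for cytokinesis, measured 0.99 and 0.55 on the 0 Gy arrays, -1.91 and -1.63 at 30 Gy, -2.25 and -1.97 at 50 Gy, and -0.43 and -0.62 at 70 Gy. All 6 irradiated arrays lay below both unirradiated ones, and the mean fell by 2.24 ± 0.23 (SE, limma adjusted p = 3.7e-13). Kif11, the tetrameric motor gene that pushes spindle poles apart, measured 3.25 on both 0 Gy arrays, 1.55 and 1.49 at 30 Gy, 1.83 and 2.05 at 50 Gy, and 2.53 and 2.49 at 70 Gy. These groups did not overlap either, and Kif11 fell by 1.26 ± 0.16 (limma adjusted p = 2.5e-10), while its dimmer probe gave -0.81.

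Kif22, a chromosome arm motor gene, measured 6.06 and 6.10 without irradiation and 5.06 to 5.48 on the irradiated arrays of 8520. It fell by 0.88 ± 0.12 (limma adjusted p = 8.8e-09). Kif4, another chromosome arm motor gene, fell by 0.57 and lost its call without the second 0 Gy array (-0.45, limma adjusted p = 0.0551). Kif20b, a motor gene of cytokinesis, was the tested mitotic member that did not pass. Kif20a, a motor gene of the midzone, had a value on 1 of the 2 unirradiated arrays (3.49), and its change of -0.54 rests on that array.

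Transport kinesins moved in both directions in 8520: 3 of 12 rose, 2 fell and the median was 0.03. Of all genes 18.5% rose, 32.4% fell and 50.9% were called. Kif3a, the motor gene of heterotrimeric kinesin-2 that builds cilia, measured 0.98 and 0.86 at 0 Gy, 2.47 and 2.04 at 30 Gy, 1.91 and 1.63 at 50 Gy, and 1.81 and 1.76 at 70 Gy. All irradiated arrays were higher, and it rose by 1.02 ± 0.16 (limma adjusted p = 1.4e-07). Kif13a, a vesicle motor gene, rose by 0.67. Kif5c, a heavy chain of conventional kinesin, fell by 0.46 from 3.91 and 3.98 to between 3.31 and 3.77, although its much dimmer probe gave 0.34. Kif5b, the heavy chain expressed in most tissues, measured 3.09 and 2.70 at 0 Gy and 2.21 to 3.21 after irradiation, so its groups overlapped (-0.24, limma adjusted p = 0.27).

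Among other kinesins of 8520, 3 of 9 rose, 1 fell and the median was 0.11, where 50.9% of all genes were called. The microtubule depolymerase gene Kif2a measured 3.37 and 3.42 at 0 Gy and 2.40 to 3.18 after irradiation. It fell by 0.64 (limma adjusted p = 7.8e-05). Summed skeletal muscle markers were 411 to 453 at 0 Gy and 227 to 256 after irradiation in 8520, and macrophage markers 316 to 343 and 90.7 to 378. The part of these cells in the results was not tested.

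In nfsa the class counts were small. Of 9 mitotic kinesins, 1 rose and 1 fell, with a median of 0.01, where 9.32% of all genes rose, 19.7% fell, 29.0% were called and the median gene was at -0.0736. The count of 2 became 1 with quantile normalization or array weights. Kif23 measured -0.01 and 0.96 at 0 Gy, -1.44 and -1.01 at 30 Gy, 1.12 and -0.11 at 50 Gy, and -0.14 and -0.36 at 70 Gy. Its 50 Gy arrays overlapped the controls and its 30 Gy arrays did not. The fall of 0.80 (limma adjusted p = 0.0058) was lost without the second 0 Gy array (-0.31, limma adjusted p = 0.526). Kif20b rose by 0.51, a call lost without either 0 Gy array (adjusted p up to 0.317 by limma) and without 4 of the 6 irradiated ones.

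Kif11 of nfsa measured 3.94 and 4.08 at 0 Gy, 3.12 and 3.38 at 30 Gy, 4.23 and 4.03 at 50 Gy, and 3.81 and 3.73 at 70 Gy. The mean over doses was -0.29 (limma adjusted p = 0.16). At 30 Gy alone 5 of 9 mitotic kinesins fell in nfsa, with a median of -0.49 (24.4% of all genes fell, 40.2% were called), and at 50 Gy 1 rose, none fell and the median was 0.23 (3.60% of all genes rose, 7.33% were called). Averaged over doses 2 transport kinesins fell, where 19.7% of all genes fell and 29.0% were called. They were Kif1a, an axonal vesicle motor gene (-0.41), and Kif5c (-0.39). Kif5c went from 4.04 and 4.24 to between 3.58 and 4.02, with -0.01 on its dimmer probe. The Kif1a call was lost without the first 0 Gy array (-0.38, limma adjusted p = 0.0596). Kif3a (0.26) and Kif5b (-0.06) did not pass. Summed muscle markers were 353 to 367 at 0 Gy and 777 to 1248 after irradiation in nfsa, and macrophage markers 163 to 173 and 195 to 309. Their part was not tested.

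In the mammary carcinoma mmca, 5 of 9 mitotic kinesins rose and none fell, with a median of 0.38, where 18.0% of all genes rose, 15.0% fell, 33.1% were called and the median gene was at 0.0135. Kif20a measured 2.17 and 2.36 at 0 Gy, 2.43 and 2.45 at 30 Gy, 3.37 and 3.16 at 50 Gy, and 3.39 and 3.29 at 70 Gy. All 6 irradiated arrays were above both controls, and Kif20a rose by 0.75 ± 0.15 (limma adjusted p = 9.9e-05). Kif18b, a gene for a motor that limits astral microtubules, measured 4.00 and 4.10 at 0 Gy and 4.51 to 4.86 after irradiation, a rise of 0.65 (limma adjusted p = 0.00039). Kif20b rose by 0.81 from -0.70 and -1.53, and this call was lost without the second 0 Gy array (0.39, limma adjusted p = 0.297).

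Kif18a, a motor gene that dampens chromosome movements, rose by 0.43 in mmca. Its call was lost without either 0 Gy array (limma adjusted p = 0.194 and 0.0642) or the second 50 Gy array (0.0603). The count of 5 called mitotic members was 3 without the first 0 Gy array and 2 without the second. Kif11 measured 2.95 and 3.04 at 0 Gy, 2.58 and 2.57 at 30 Gy, 3.10 on both 50 Gy arrays, and 3.49 and 3.50 at 70 Gy, so 30 Gy lay below and 70 Gy above the controls, with a mean change of 0.06. Kif23 measured -0.68 and -0.96 at 0 Gy, -1.83 and -2.09 at 30 Gy, 0.14 and -0.09 at 50 Gy, and -0.11 and 0.02 at 70 Gy (mean change 0.16, limma adjusted p = 0.63). It too was below its controls at 30 Gy and above them at 50 and 70 Gy.

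No transport kinesin rose and 4 of 12 fell in mmca, with a median of -0.17. Of all genes 18.0% rose, 15.0% fell and 33.1% were called. Kif21a, a motor gene known for axon guidance, measured 0.19 and 0.10 at 0 Gy, -1.45 and -1.64 at 30 Gy, -0.47 and -0.17 at 50 Gy, and -0.31 and -0.18 at 70 Gy. All irradiated arrays were lower, and it fell by 0.85 ± 0.19 (limma adjusted p = 0.00043). Kif3c, a kinesin-2 gene, fell by 0.52, a call lost without the first 0 Gy array (-0.49, limma adjusted p = 0.0767). Kif3a went from 2.53 and 2.51 to between 1.91 and 2.30 and fell by 0.49, a call lost without either 0 Gy array (limma adjusted p = 0.0999 and 0.0932).

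With the day 1 and day 9 unirradiated arrays of mmca pooled as control, an alternative chosen after seeing the data, the transport median was 0.021 instead of -0.17, and Kif1a stood at 0.023 instead of -0.28. Kif5b of mmca was at -0.19 and did not pass. Summed muscle markers of mmca were 6.05 to 6.06 at 0 Gy, 20.5 to 20.9 at 30 Gy, 210 to 223 at 50 Gy and 11.6 to 12 at 70 Gy, where most mitotic kinesins rose. Macrophage markers were 40.1 to 42.2 at 0 Gy and 83.3 to 98.7 over the irradiated arrays. The part of either was not tested.

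In mca4, 6 of 9 mitotic kinesins rose and 1 fell, with a median of 0.38, where 21.3% of all genes rose, 21.4% fell, 42.8% were called and the median gene was at -0.00462. Kif20b measured -1.72 and -1.15 at 0 Gy, -0.57 on both 30 Gy arrays, -1.22 and -1.04 at 50 Gy, and 0.13 and -0.01 at 70 Gy. The 50 Gy arrays overlapped the controls, and Kif20b rose by 0.89 (limma adjusted p = 0.00018), a call lost without the first 0 Gy array (0.60, limma adjusted p = 0.0655). Kif18a measured 2.25 and 1.89 at 0 Gy and 2.65 to 2.82 after irradiation, a rise of 0.65 that lost its call without the second 0 Gy array (0.47, limma adjusted p = 0.0581). Kif4 likewise went from 2.68 and 2.30 to between 2.87 and 3.30, and its rise of 0.65 was lost without the same array (0.46, limma adjusted p = 0.0560).

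Kif23 of mca4 ran the other way: -1.20 and -0.48 at 0 Gy, and -1.90 to -1.26 after irradiation. No irradiated array overlapped the controls, and it fell by 0.71 (limma adjusted p = 0.0094), a call lost without the second 0 Gy array (-0.35, limma adjusted p = 0.408). The 7 called mitotic members became 4 without the first and 2 without the second 0 Gy array. Kif11 overlapped its controls and did not pass (2.98 and 2.90 at 0 Gy, 2.57 to 3.31 after irradiation, change -0.00, limma adjusted p = 0.99), while its dimmer probe gave 0.24.

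Of 12 transport kinesins in mca4, 2 rose, 1 fell and the median was -0.02. Of all genes 21.3% rose, 21.4% fell and 42.8% were called. Kif3a measured 0.75 and 0.68 at 0 Gy, 2.34 and 2.21 at 30 Gy, 1.77 and 1.92 at 50 Gy, and 1.60 and 1.61 at 70 Gy. It rose by 1.20 ± 0.16 (limma adjusted p = 4.4e-09) without overlap. Kif13a rose by 0.42, a call lost without the second 0 Gy array (0.30, limma adjusted p = 0.173), and Kif5c fell by 0.44, with 0.28 on its dimmer probe. Kif5b was at -0.07 and did not pass. Summed muscle markers of mca4 were 335 to 375 at 0 Gy, 298 to 319 at 30 Gy, 308 to 318 at 50 Gy and 81.8 to 91.8 at 70 Gy. Macrophage markers were 181 to 187 at 0 Gy and 95.6 to 164 after irradiation. Their part was not tested.

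Taken dose by dose, the mitotic kinesins of 8520 fell at 30 Gy (8 of 9, median -0.75, where 48.6% of all genes were called) and at 50 Gy (8 of 9, median -0.83, 42.8%). At 70 Gy 4 fell and 1 rose, with a median of -0.03 (49.6%). In mmca 1 rose and 2 fell at 30 Gy (median 0.15, 41.8%), 2 rose at 50 Gy (0.45, 20.3%) and 8 of 9 rose at 70 Gy (0.77, 26.4%). In mca4 4 rose and 1 fell at 30 Gy (median 0.31, 43.4%) and at 50 Gy (0.41, 34.5%), and 5 rose at 70 Gy (0.51, 41.1%). In nfsa 2 rose and 1 fell at 70 Gy (0.15, 36.1%).

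**Figure D2:**
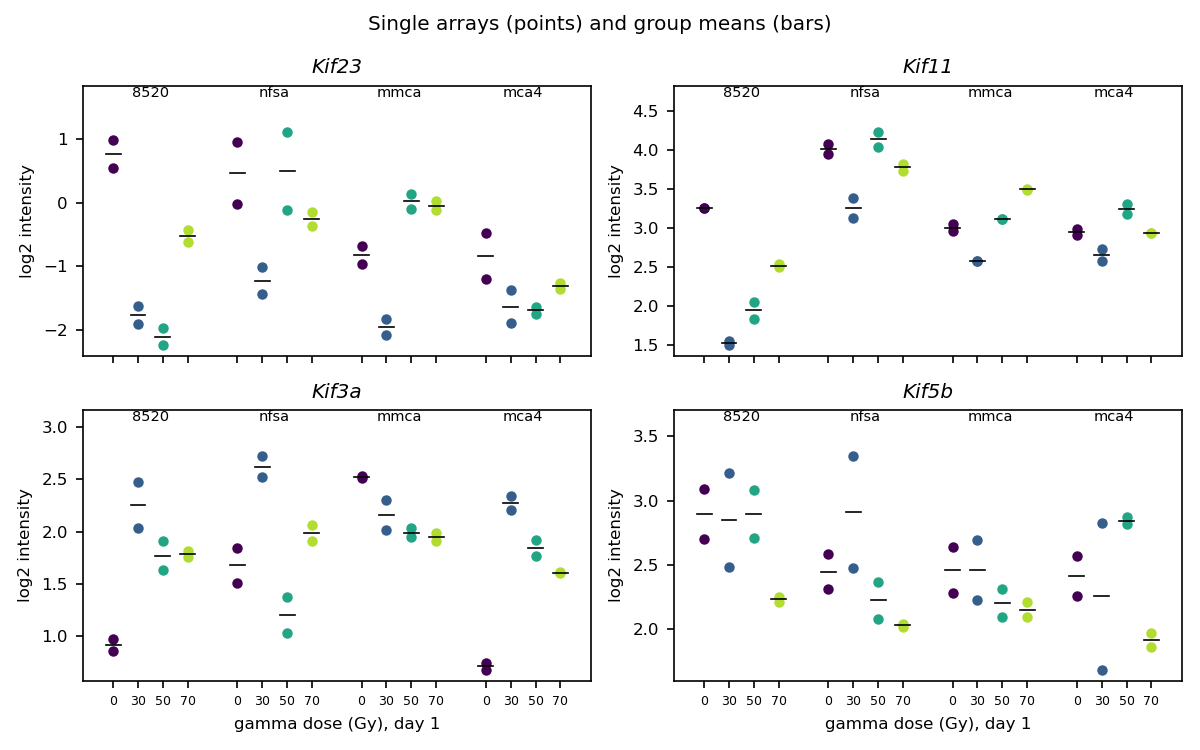
log2 intensity (vertical axis) of the mitotic genes Kif23 and Kif11 and the transport genes Kif3a and Kif5b at gamma day 1 by tumour and dose (horizontal axis, Gy); points are single arrays and bars are group means. Kif11 of 8520 is lowest at 30 and 50 Gy, Kif23 is below its control at 30 Gy in each tumour, and Kif3a rises in 8520 and mca4 and falls in mmca.

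The difference of changes between tumour kinds was tested directly, each tumour against its own 0 Gy arrays. All 9 mitotic kinesins had lower changes in the fibrosarcomas than in the mammary carcinomas, with a median difference of -0.71, where 17.5% of all genes were lower, 4.37% were higher, 21.9% were called and the median gene was at -0.0907. The differences were -1.25 ± 0.23 for Kif23 (limma adjusted p = 3.6e-05), -0.87 ± 0.14 for Kif4 (5.1e-06), -0.87 ± 0.17 for Kif20a (9.3e-05) and -0.80 ± 0.16 for Kif11 (9.0e-05). Those of Kif20b (-0.55) and Kif2c (-0.40) lost their call on leaving out several single arrays, with limma adjusted p up to 0.254 and 0.517. When missing values were placed at the floor and arrays quantile normalized, 5 of 9 passed and the median was -0.55. At the main setting all 9 changes were lower in 8520 than in nfsa. Class medians were -0.55 in 8520, 0.01 in nfsa and 0.38 in both mmca and mca4. Kif11 changed by -1.26, -0.29, 0.06 and -0.00 in that order, and Kif23 by -2.24, -0.80, 0.16 and -0.71. Kif2c of nfsa (0.16) lay above that of mmca (0.05). The other mitotic changes of nfsa lay below those of both mammary carcinomas. The share of each fibrosarcoma in the contrast was not tested.

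Among the 12 transport kinesins 1 differed, Kif21b (0.33), where 21.9% of all genes were called. Kif21b lost its call without any of 4 unirradiated arrays (limma adjusted p up to 0.0705). Kif3a (0.28, limma adjusted p = 0.20) and Kif5b (-0.02, limma adjusted p = 0.96) did not pass, and no other kinesin did. The unirradiated tumours differed as well: all 9 mitotic kinesins were higher in the fibrosarcomas than in the mammary carcinomas, with a median of 0.63, where 41.3% of all genes were higher and 67.4% were called. Kif20a stood at 3.49 in 8520 (1 array), 3.89 in nfsa, 2.26 in mmca and 2.27 in mca4. The start and the change share these unirradiated arrays.

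When the arrays of a group were averaged and the doses of a tumour served as replicates, an alternative chosen after seeing the data, no mitotic kinesin passed in any of these 5 comparisons. The lowest limma adjusted p among the 9 was 0.097 in 8520, 0.940 in nfsa, 0.338 in mmca, 0.418 in mca4 and 0.720 for the difference of tumour kinds. At an unadjusted p under 0.05 there were 4, 0, 1, 0 and 4 of 9, and over all genes 290, 14, 10, 0 and 0 passed.

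Doses were also compared within day 1, where each dose of a tumour is 1 group of 2 arrays. At 70 Gy against 30 Gy, averaged over the 4 tumours, 7 of 9 mitotic kinesins were higher and none lower, with a median of 0.68, where 23.7% of all genes were higher, 26.5% were lower, 50.2% were called and the median gene was at -0.00980. Kif23 was higher by 1.11 ± 0.14 (limma adjusted p = 4.3e-10), Kif20a by 0.84 ± 0.10 (9.4e-11), Kif2c, the depolymerase gene that corrects faulty attachments at kinetochores, by 0.81 ± 0.092 (1.7e-11), and Kif20b by 0.75 ± 0.12 (3.7e-07). Kif11 was higher by 0.68 ± 0.096 (1.1e-08).

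By tumour, 6 of 9 were higher at 70 than at 30 Gy in 8520 (9.13% of all genes were, 24.0% were called in either direction), 6 of 9 in nfsa (10.3%, 27.5%), 7 of 9 in mmca (19.4%, 28.7%) and none in mca4 (4.32%, 11.8%). The medians were 0.72, 0.52, 0.84 and 0.08. Kif2c of mmca measured 0.67 and 0.55 at 30 Gy and 2.21 and 2.10 at 70 Gy, on either side of its controls (1.55 and 1.51). Averaged over the tumours, 5 transport kinesins were higher and 3 lower at 70 Gy, with a median of 0.09. Of all genes 23.7% were higher, 26.5% were lower and 50.2% were called. Kif1b, a motor gene for mitochondria and synaptic vesicle precursors, was lower by 0.71, while its dimmer probe gave 0.20. Kif3c was higher by 0.58, Kif5b lower by 0.54 and Kif3a lower by 0.49.

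At later times after gamma rays the classes moved differently from tumour to tumour, which was not tested. Later groups of 8520, nfsa and mca4 had only 0 Gy day 1 as control, so time and irradiation cannot be told apart there. The day 19 group of mmca was set against 0 Gy day 9. Without irradiation 21.2% of all genes were called between days 9 and 1 of mmca. Its mean over the mitotic kinesins was 2.22 and 2.19 at 0 Gy day 1, and 2.42 and 2.28 at 0 Gy day 9. In 8520 at day 8 after 30 Gy, 4 of 9 mitotic kinesins were higher than at 0 Gy day 1 and 2 lower, with a median of 0.18 (25.3% of all genes rose, 32.9% fell, 58.2% were called, median gene -0.0750). The median was 0.41 with quantile normalization and 0.47 with missing values also placed at the floor. Kif20b measured -1.05 and -0.87 at 0 Gy and 0.22, 0.39 and -0.04 at day 8, and it rose by 1.15 ± 0.22 (limma adjusted p = 9.5e-06). Kif23 fell by 0.59 to 0.27, -0.00 and 0.29. That call was lost without the first 0 Gy array (-0.37, limma adjusted p = 0.355) and without the first or second day 8 array (0.0521 and 0.129). Without the first 0 Gy array 2 rather than 6 mitotic members were called. Kif11 was at -0.37 and did not pass (limma adjusted p = 0.059). Summed T and NK cell markers were 11.3 to 59.8 at day 8 against 2.83 to 3.19 at 0 Gy, and their part was not tested.

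Kif3a of 8520 stayed above its controls at 2.33, 2.03 and 2.39 (change 1.33 ± 0.18, limma adjusted p = 1.7e-09), Kif3c rose by 0.86 and Kif13a by 0.75. With 4 of 12 higher and 4 lower the transport median was 0.12, where 25.3% of all genes rose, 32.9% fell and 58.2% were called. By day 16, 1 mitotic kinesin was higher and 4 lower than at 0 Gy (26.5 and 39.4% of all genes, 65.9% in all), and at day 22 after 50 Gy again 1 and 4 (26.7 and 38.5%, 65.2% in all). Kif11 then measured 2.55, 1.93 and 2.60.

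In nfsa at day 9 after 30 Gy, 1 of 9 mitotic kinesins rose and 3 fell, with a median of -0.35 (24.8% of all genes rose, 26.2% fell, 51.0% were called, median gene -0.00593). Kif20a measured 3.88 and 3.90 at 0 Gy and 2.94, 3.06 and 3.29 at day 9, a fall of 0.79 (limma adjusted p = 9.3e-05). Kif11 fell by 0.60 (-0.09 on its dimmer probe). Kif20b rose by 0.75, a call lost without the second 0 Gy array (0.66, limma adjusted p = 0.0551). Kif23 fell by 0.76 and also lost its call without the second 0 Gy array (-0.28, limma adjusted p = 0.498), without which 2 rather than 4 mitotic members were called. With quantile normalization 7 were called, and 2 with missing values also at the floor. Summed macrophage markers were 418 to 452 against 163 to 173 at 0 Gy, T and NK cell markers 9.31 to 14.7 against 2.71 to 2.91, and muscle markers 20.0 to 156 against 353 to 367. Their part was not tested.

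Of the transport kinesins of nfsa at day 9, Kif13b, a motor gene of phosphoinositide cargo, rose by 0.91 from 2.57 and 2.73 to 3.52, 3.69 and 3.47. Kif1b fell by 1.39 (-0.21 on its dimmer probe) and Kif5b fell by 0.74, from 2.58 and 2.31 to 1.77, 1.69 and 1.64. Kif3a was at 0.08 and did not pass. With 2 higher and 2 lower the median was 0.06, where 24.8% of all genes rose, 26.2% fell and 51.0% were called.

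A larger fall was seen in nfsa at day 4 after 50 Gy, where 8 of 9 mitotic kinesins fell with a median of -1.64 (35.2% of all genes fell, 58.1% were called, median gene -0.0963). Kif11 measured 2.33, 2.22 and 1.33 against 3.94 and 4.08 and fell by 2.05 ± 0.18 (limma adjusted p = 2.2e-16), with -1.05 on its dimmer probe. Kif23 measured -1.20, -1.35 and -1.78. The third array was the lowest of its group for Kif4, Kif11, Kif18a, Kif18b, Kif20a, Kif22 and Kif23, and without it the median was -1.34. Summed macrophage markers were 427 to 497 there against 163 to 173 at 0 Gy, T and NK cell markers 30.2 to 46.6 against 2.71 to 2.91, and muscle markers 257 to 2207 against 353 to 367. Their part in the fall was not tested. At day 9 after 50 Gy, 8 of 9 were still lower (median -0.95, 37.3% of all genes fell, 59.1% were called), and at day 4 after 30 Gy 5 of 9 were (median -0.66, 28.8%, 51.8%).

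In mmca at day 9 after 30 Gy, no mitotic kinesin passed in the limma fit against 0 Gy of the same day, with a median of 0.09 (16.5% of all genes rose, 6.46% fell, 23.0% were called, median gene 0.0661). The median was -0.12 with quantile normalization and 0.25 against 0 Gy day 1, where 1 was called. Kif11 measured 2.88 and 2.86 at 0 Gy and 2.83, 2.81 and 2.78 at day 9. Kif23 was at 0.56 (limma adjusted p = 0.11). No transport kinesin passed either, with Kif3a at -0.43 and Kif5b at -0.30. Among other kinesins 4 of 9 rose. Kif26b, a kinesin without motor activity, measured 0.30 and 0.39 at 0 Gy and 1.35, 1.85 and 2.03 at day 9, a rise of 1.40 ± 0.34 (limma adjusted p = 0.0013). Summed macrophage markers were 153 to 157 there against 55.5 to 76.1 at 0 Gy, muscle markers 41.5 to 376 against 6.50 to 27.2, and their part was not tested.

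At day 19 after 50 Gy, 8 of 9 mitotic kinesins of mmca fell, with a median of -0.63 (23.0% of all genes fell, 50.5% were called, median gene 0.00858). Kif22 fell by 0.91 and Kif11 by 0.84, to 1.60, 2.44 and 2.07. Kif23, at -0.54, did not pass (limma adjusted p = 0.071). Kif26b rose by 3.27 ± 0.34 to 3.67, 3.84 and 3.32 (limma adjusted p = 4.4e-13). Kif9, a kinesin gene of motile cilia and sperm tails, rose by 1.13. Kif3c fell by 1.03 and Kif3a by 0.83. Summed macrophage markers were 286 to 318 there against 55.5 to 76.1 at 0 Gy day 9, and their part was not tested.

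In mca4 at day 11 after 30 Gy, 5 of 9 mitotic kinesins rose and none fell, with a median of 0.69 (27.1% of all genes rose, 33.6% fell, 60.8% were called, median gene -0.0681). Kif2c measured 0.30 and 0.83 at 0 Gy and 1.82, 2.06 and 2.24 at day 11, a rise of 1.48 ± 0.17 (limma adjusted p = 8.6e-12). Kif23 was at 0.18, 0.52 and 0.45 and rose by 1.22 ± 0.26 (limma adjusted p = 3.3e-05), opposite to its fall at day 1. Kif20b rose by 0.76, a call lost without the first 0 Gy array (0.47, limma adjusted p = 0.148), Kif18a by 0.70 and Kif4 by 0.69. Kif11, at -0.18, did not pass. Summed muscle markers were 29.9 to 65.0 against 335 to 375 at 0 Gy. T and NK cell markers were 4.72 to 13.7 against 3.85 to 4.63. Markers listed for nerve summed to 126 to 133 against 247 to 265. Mean log2 levels over the mca4 arrays were 6.53 for Sox10, 5.75 for S100b and 4.3 for Pmp22. Those of Snap25, Tubb3 and Uchl1 were -0.131, -0.419 and -0.139. Sox10 was also high in mmca (6.37) but not in nfsa (0.0801), while Pmp22 stood at 4.22 in mmca and 6.96 in nfsa. This sum therefore cannot be read as nerve cells alone. The part of other cell types was not tested.

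Kif3a of mca4 again rose, by 1.52 ± 0.18, to 2.23, 2.19 and 2.27 (limma adjusted p = 2.5e-11). Kif21a rose by 1.16 and Kif3c by 1.07, and Kif5b (-0.02) did not pass. The transport median was 0.01, with 3 higher and 2 lower, where 27.1% of all genes rose, 33.6% fell and 60.8% were called. After 50 Gy, 2 of 9 mitotic kinesins of mca4 were higher and 3 lower at day 25 (27.6 and 33.0% of all genes, 60.6% in all), and 4 higher and none lower at day 41 (26.5 and 29.7%, 56.3% in all). Between these days 5 of 9 rose, with a median of 0.43 (17.8% of all genes rose, 33.2% were called). Kif4 measured 2.96, 2.44 and 2.68 at day 25 and 3.24 and 3.28 at day 41.

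**Figure D3:**
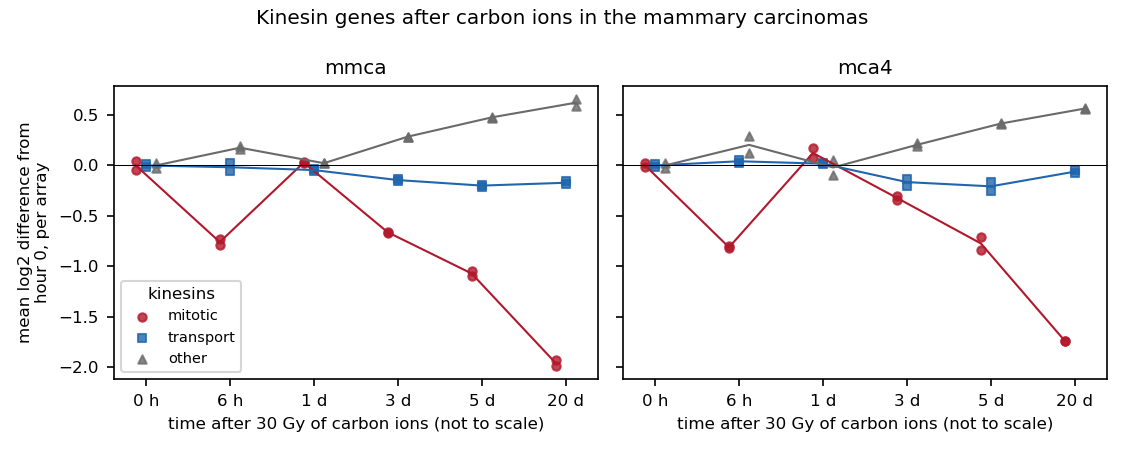
Mean log2 difference from hour 0 over the tested mitotic, transport and other kinesins (vertical axis, log2) by time after 30 Gy of carbon ions (horizontal axis, not to scale) in mmca and mca4; points are single arrays and lines join group means. The mitotic mean is low at 6 h, back near 0 at day 1 and falls to day 20, while the transport mean stays within about 0.25 of 0.

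After 30 Gy of carbon ions the mitotic kinesins of both mammary carcinomas fell at hour 6, were near their starting level at day 1, and fell again to day 20. At hour 6, 7 of 9 fell in mmca, with a median of -0.84, where 2.11% of all genes fell, 4.96% were called and the median gene was at -0.0450. In mca4 also 7 of 9 fell, with a median of -0.75 (0.942% of all genes fell, 2.27% were called, median gene -0.0260). Kif2c of mmca measured 2.31 and 2.37 at hour 0 and 1.46 and 1.27 at hour 6, a fall of 0.98 ± 0.18 (limma adjusted p = 0.00016). In mca4 it went from 2.40 and 2.18 to 1.37 and 0.93, a fall of 1.14 (limma adjusted p = 1.2e-05).

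Kif20a fell at hour 6 by 0.84 in mmca, from 2.37 and 2.41 to 1.60 and 1.50, and by 1.10 in mca4, from 2.45 and 2.34 to 1.24 and 1.34. Kif11 fell by 0.72 and 0.75, and Kif23 by 0.96 and 1.21. No group of these genes overlapped its control, but each group has only 2 arrays. The share of all genes without overlap was not counted, and several calls rested on single arrays. Those of Kif11 were lost without any 1 of the 4 arrays of either tumour (limma adjusted p up to 0.222), and those of Kif23 without any array of mmca (up to 0.175) and without the first hour 0 or the second hour 6 array of mca4 (up to 0.156). Left-out arrays brought the count of 7 to between 2 and 4 in mmca and to 3 or 4 in mca4. With missing values at the floor and quantile normalization, an alternative chosen after seeing the data for the hours and days other than day 1, it was 4 in mmca.

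No transport kinesin passed at hour 6 in mmca, where 4.96% of all genes were called. In mca4 1 rose, Kif1c, a vesicle motor gene (0.79), where 1.33% of all genes rose and 2.27% were called. Its call was lost without the second hour 0 array (0.72, limma adjusted p = 0.0945) or the second hour 6 array (0.43, limma adjusted p = 0.576), and its dimmer probe gave -0.04. Kif5b was at -0.06 in mmca and -0.00 in mca4, and Kif3a at -0.01 and 0.00.

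At day 1, 1 mitotic kinesin of mmca passed, Kif20a, which measured 3.05 and 2.96 against 2.37 and 2.41 and rose by 0.62 (limma adjusted p = 0.035, median of the class -0.10, where 2.06% of all genes rose and 5.62% were called, median gene -0.0549). This call was lost without any 1 of its 4 arrays (limma adjusted p up to 0.251). With the compared arrays alone 3 mitotic members were called in each tumour. In mca4 no mitotic kinesin passed in the limma fit, with a median of 0.02 (1.74% of all genes were called, median gene 0.0271), and Kif20a measured 2.98 on both arrays against 2.45 and 2.34. Kif11 was at -0.28 in mmca and -0.04 in mca4, where 1 of its 2 day 1 arrays had no value, and Kif23 at -0.16 and -0.35. Kif5b (-0.02 and -0.10) and Kif3a (-0.06 and -0.22) did not pass.

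At day 3, 8 of 9 mitotic kinesins fell in mmca (median -0.71, 20.2% of all genes fell, 33.5% were called, median gene -0.101) and 1 of 9 in mca4, Kif11 (median -0.32, 9.31% fell, 20.1% were called, median gene -0.0571). Without any 1 of the compared arrays 4 and none were called. The count was 5 in mmca with quantile normalization and 5 in mca4 with array weights or the compared arrays alone, alternatives chosen after seeing the data. Kif11 of mca4, which fell by 0.60 (limma adjusted p = 0.018), then had limma adjusted p = 0.0528 to 0.127. At day 5 all 9 fell in both tumours, with medians of -1.04 in mmca (32.3% of all genes fell, 50.3% were called, median gene -0.134) and -0.76 in mca4 (24.6%, 41.4%, median gene -0.103).

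At day 20 all 9 mitotic kinesins had fallen in both, with medians of -1.85 in mmca (36.7% of all genes fell, 59.4% were called, median gene -0.143) and -1.85 in mca4 (36.0%, 60.0%, median gene -0.140). Kif11 of mmca went from 3.02 and 3.14 to 0.50 and 0.62 and fell by 2.52 ± 0.19 (limma adjusted p = 1.5e-18). In mca4 it went from 2.63 and 2.70 to 0.65 on both arrays and fell by 2.02 ± 0.19 (limma adjusted p = 1.5e-14). Kif2c fell by 2.15 in mmca and 1.88 in mca4, Kif23 by 2.11 and 1.85, Kif22 by 2.04 and 1.64, Kif20a by 1.77 and 1.93, and Kif4 by 1.81 and 1.91.

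**Figure D4:**
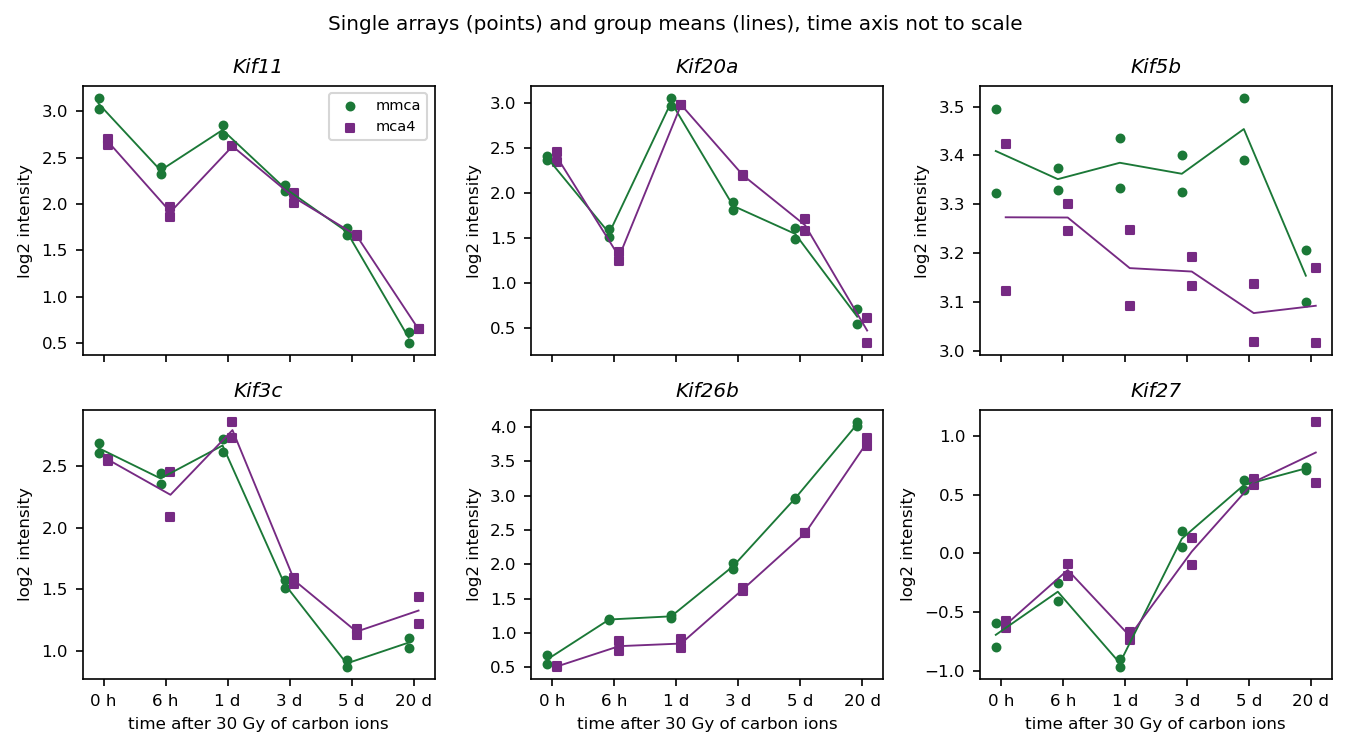
log2 intensity (vertical axis) of Kif11, Kif20a, Kif5b, Kif3c, Kif26b and Kif27 by time after 30 Gy of carbon ions (horizontal axis, not to scale) in mmca and mca4; points are single arrays and lines join group means. Kif11 falls to between 0.50 and 0.65 at day 20, and Kif26b rises from between 0.51 and 0.68 at hour 0 to between 3.72 and 4.07.

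The transport kinesins had a median near 0 at day 20 (-0.06 in mmca and -0.07 in mca4), with 2 of 12 higher and 3 lower in each tumour, where 59.4 and 60.0% of all genes were called. Kif3c measured 2.69 and 2.61 at hour 0, 2.62 and 2.72 at day 1, 1.51 and 1.57 at day 3, and 1.02 and 1.11 at day 20 in mmca. It fell by 1.58 ± 0.19 there (limma adjusted p = 2.9e-11) and by 1.23 in mca4. Kif13b rose by 0.75 in both, from 2.73 and 2.91 to 3.48 and 3.65 in mmca and from 2.72 and 2.71 to 3.62 and 3.31 in mca4. Kif5b did not pass in either (3.32 and 3.49 at hour 0 and 3.10 and 3.21 at day 20 in mmca, change -0.25).

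Kif3a fell by 0.60 in mmca, a call lost without the second hour 0 or the first day 20 array (limma adjusted p = 0.0654 and 0.0579). It fell by 0.52 in mca4, a call lost without the first hour 0 or the second day 20 array (0.0875 and 0.108). In mca4 replicate numbers were taken to pair the arrays from correlations alone, since no label states a pairing. Kif1b (0.58) passed there only with this replicate block (limma adjusted p = 0.036 against 0.060 without it), while its dimmer probe gave 0.06.

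Of the other kinesins 4 of 9 rose and 3 fell at day 20 in each tumour, where 22.7% of all genes rose and 36.7% fell in mmca (59.4% were called) and 24.0 and 36.0% in mca4 (60.0%). Kif26b of mmca measured 0.68 and 0.55 at hour 0, 1.18 and 1.21 at hour 6, 1.26 and 1.22 at day 1, 2.02 and 1.93 at day 3, 2.97 and 2.96 at day 5, and 4.01 and 4.07 at day 20. It rose by 3.43 ± 0.37 (limma adjusted p = 1.5e-12) and in mca4 by 3.26. Kif26a, its non-motile relative, rose by 1.75 and 1.41, and Kif9 by 1.06 and 1.08. Kif27, a kinesin gene of motile cilia, rose by 1.42 and 1.47 on its brighter probe, while the dimmer gave -0.55 and -0.69, so its direction is uncertain. Kif2a fell by 0.82 and 0.85, and Kif7, a regulator of Hedgehog signalling in cilia, by 0.61 and 0.65. The Kif7 call in mmca was lost without the first day 20 array (-0.48, limma adjusted p = 0.0659).

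Other cell types moved with these results. From hour 0 to day 20 summed macrophage markers (4 of 7 listed were measured) went from 116 to 128 up to 366 to 374 in mmca and from 95.3 to 105 up to 409 to 468 in mca4. T and NK cell markers (4 of 6) went from 3.46 to 3.60 up to 22.7 to 23.6 and from 2.28 to 2.41 up to 28.4 to 31.2. Mesenchymal markers (all 5) went from 151 to 164 up to 274 to 308 in mmca, epithelial markers from 193 to 224 up to 273 to 277, and muscle markers from 99.1 to 105 up to 407 to 432. Their part in the kinesin changes was not tested. Of 5 ciliated cell markers 3 were measured, and Dnah5 and Tekt1 among them were too dim to be tested (median log2 levels of -2.18 and -1.79 over all arrays). Their sum was 1.25 to 1.70 at hour 0 and day 20, too low to show whether such cells moved with Kif9.

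The other 4 tumours had no unirradiated carbon group, so late carbon groups were set against day 5. All 9 mitotic kinesins were higher at day 20 than at day 5 in 8520 (median 0.85, 28.0% of all genes rose, 44.9% were called) and in nfsa (median 0.94, 12.1%, 19.9%), and 7 of 9 in nrs1 (median 0.94, 24.5%, 35.7%). In scc7, 3 of 9 were higher at day 42 than at day 5 (median 0.42, 15.5%, 32.5%), while 6 were called with array weights and 7 with the compared arrays alone, alternatives chosen after seeing the data. Kif11 went from 1.66 and 1.71 to 2.36 and 2.27 in 8520, from 1.92 and 1.96 to 2.95 and 2.83 in nfsa, and from 1.62 and 1.71 to 2.91 and 2.73 in nrs1, and in scc7 it measured 2.56 and 2.60, then 2.86 and 2.98. The direction between days 5 and 20 was thus the reverse of that in mmca and mca4, where Kif11 fell from 1.75 and 1.66 to 0.50 and 0.62 and from 1.66 on both arrays to 0.65 on both. The difference between tumours in this course was not tested.

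Other cell types moved here too. Summed T and NK cell markers went from 67.9 to 72.7 at day 5 down to 10.2 to 11.2 at day 20 in 8520, from 56.3 to 58.6 down to 12.6 to 12.9 in nfsa, and from 157 to 169 down to 39.8 to 45.2 at day 42 in scc7. In nrs1 they were 13.3 to 14.2 and 13.4 to 13.8. Muscle markers of 8520 went from 359 to 366 down to 133 to 136. The part of these cells in the kinesin differences was not tested.

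After gamma rays no mitotic kinesin passed in the limma fit between days 23 and 35 in scc7 (0.503% of all genes rose, 1.13% were called) or between 30 Gy day 8 and 50 Gy day 15 in nrs1 (3.29%, 12.8%), where dose and time change together.

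The day 1 change after 30 Gy was set between beams in mmca and mca4, each beam against its own unirradiated arrays. Of 9 mitotic kinesins 2 had a lower change after carbon ions (13.6% of all genes did, 25.5% were called), Kif20b (-0.80, limma adjusted p = 0.010) and Kif18a (-0.58, limma adjusted p = 0.013), and the median was 0.07. Averaged over both tumours, Kif3a also had a lower change after carbon ions (-0.74, limma adjusted p = 0.0029). This came from mca4, where Kif3a changed by 1.56 after gamma rays and -0.22 after carbon ions. In mmca the changes were -0.36 and -0.06, so the beams differed the other way there. The tumours were not tested singly. Beam and array experiment cannot be told apart.

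**Figure D5:**
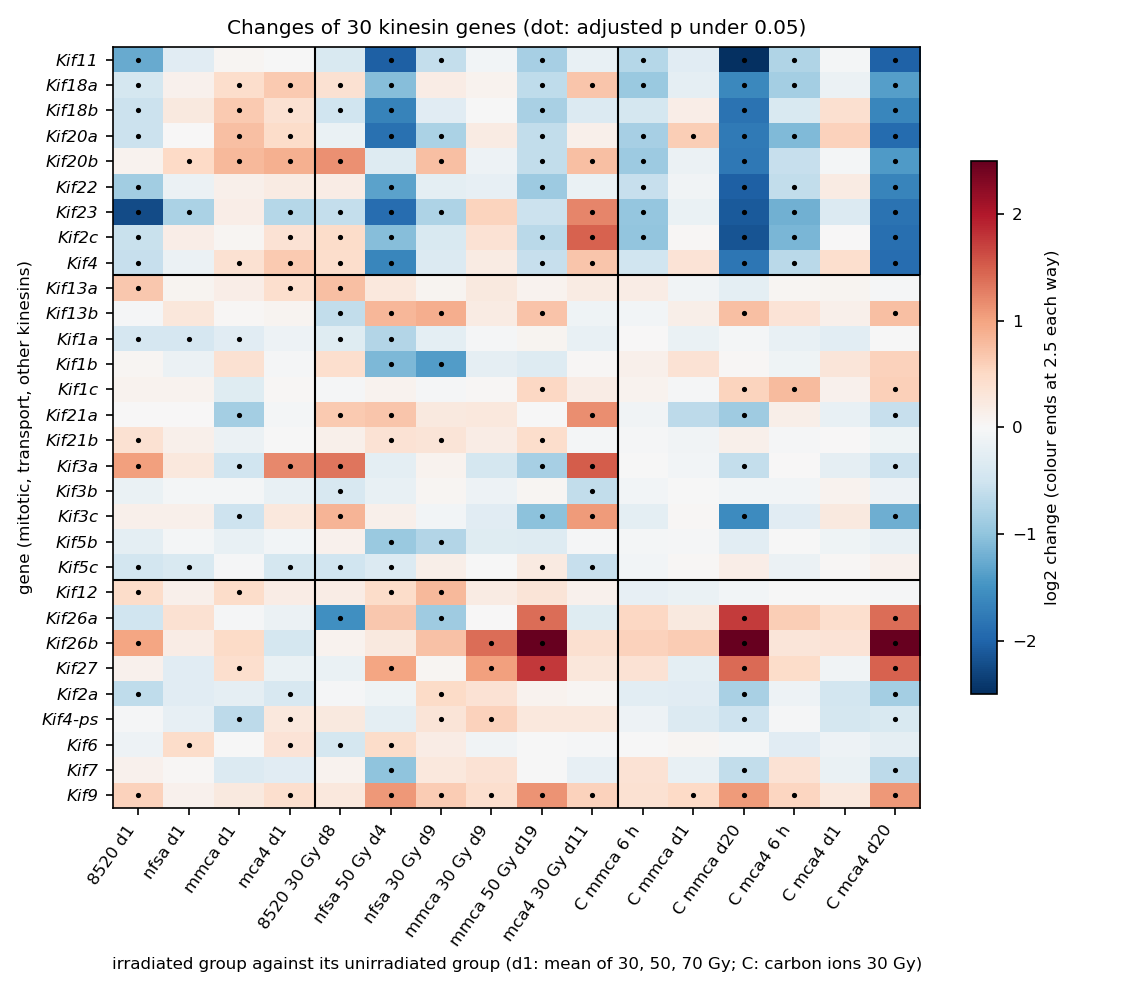
log2 change of the 30 tested kinesins (vertical axis, by class) in 16 comparisons of irradiated with unirradiated groups (horizontal axis; d1 averages 30, 50 and 70 Gy of gamma rays, C marks carbon ions); colour is the log2 change, saturated at 2.5 either way, and a dot marks a limma adjusted p under 0.05. All 9 mitotic genes are blue in nfsa 50 Gy d4, mmca 50 Gy d19 and both carbon day 20 columns, and all but Kif20b in 8520 d1, while transport genes show no shared colour.

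Across the 81 gamma and 40 carbon arrays together, as deviations from the mean of each tumour and experiment, pairs of mitotic kinesins had a median r of 0.75 (36 pairs, 0.30 to 0.93). Pairs of transport kinesins had a median of -0.02 (66 pairs) and pairs across the classes 0.06 (108 pairs). These arrays share tumours, controls and normalization, so r is a description. Kif4, Kif11 and Kif18a followed the mitotic mean most closely (r = 0.97, 0.95 and 0.95, each being part of it), and Kif23 and Kif20b least (0.76 each). Of all other genes, those most like the mitotic mean were the checkpoint kinase gene Ttk (r = 0.95), Racgap1, the centralspindlin partner of Kif23 (0.94), the abscission gene Cep55 (0.93), the topoisomerase gene Top2a (0.93) and the condensin gene Ncapg (0.92). Kif13b (-0.61), Kif9 (-0.63) and the brighter Kif27 probe (-0.73) ran against it.

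The partners of these motors were counted from lists of known roles. Of 28 tested partners of mitotic kinesins (spindle, checkpoint and cytokinesis genes), 5 rose and 17 fell at gamma day 1 in 8520 (median -0.58), 3 and 4 in nfsa, 17 and 2 in mmca (0.48) and 19 and 3 in mca4 (0.49), where 50.9, 29.0, 33.1 and 42.8% of all genes were called. None rose at hour 6 after carbon ions, where 16 fell in mmca and 14 in mca4 (2.11 and 0.942% of all genes fell). At day 20, 28 and 27 fell, with medians of -1.98 and -1.76, where 36.7 and 36.0% of all genes fell and 59.4 and 60.0% were called. Plk1, the kinase gene of mitotic entry, fell by 1.50 and 1.72 at hour 6. Of 24 transport partners (light chains, adaptors, dynein and dynactin subunits), 3 rose and 7 fell at gamma day 1 in 8520. There 18.5% of all genes rose, 32.4% fell and 50.9% were called. In mmca 5 rose and 4 fell, where 18.0% of all genes rose, 15.0% fell and 33.1% were called. At hour 6 after carbon ions none passed in the limma fit of mmca or mca4, where 4.96 and 2.27% of all genes did.

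Of 16 regulators of mitotic transcription, 1 rose and 12 fell in 8520 (median -0.81), 2 and 8 in nfsa, 5 and 2 in mmca, and 3 and 8 in mca4. Of all genes 18.5% rose and 32.4% fell in 8520 (50.9% called), 9.32 and 19.7% in nfsa (29.0%), 18.0 and 15.0% in mmca (33.1%), and 21.3 and 21.4% in mca4 (42.8%). Mybl2, the B-Myb gene of the complex that binds CHR elements, fell by 2.15 in 8520, 1.38 in nfsa and 0.50 in mca4, and was at 0.27 in mmca (limma adjusted p = 0.22). Foxm1, a forkhead factor gene for mitotic genes, fell by 0.72 in 8520 and 0.55 in nfsa. Averaged over doses it was at -0.18 in mmca and -0.09 in mca4 and did not pass. At single doses it fell by 0.67 in mmca at 30 Gy (limma adjusted p = 3.1e-05). In mca4 it fell by 0.42 at 50 Gy (limma adjusted p = 0.010) and rose by 0.36 at 70 Gy (limma adjusted p = 0.022). It did not pass at the other doses of these tumours.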

How the data were processed

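Tumour RNA was extracted with ISOGEN and RNeasy, labelled with Cy5 and hybridised to CodeLink arrays of 1 colour, per the labels' protocols. The authors deposited an intensity per probe and array on a linear scale, which was used as given. Its normalization is not given in the sources used here. Values below a floor of 0.1269 (the 5th percentile) were raised to it and log2 was taken; missing values stayed missing. Probes with several symbols (681) or none (13931) were left out. Of all probes with a value on at least 90% of arrays, with or without a symbol, the dimmest 20% by mean log2 were dropped. Per gene the brightest remaining probe was kept. All 54 groups were fitted together with limma 3.58.1 (R 4.3.3, data.table version 1.17.8; residual degrees of freedom 67), with Benjamini-Hochberg adjustment over all genes. Figures used Python 3.11.15, matplotlib 3.10.9 and pandas 2.3.3. Promoters came from RefSeq (GRCm38.p6), in which all 35 kinesin symbols matched.

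The members and gene lists were chosen with earlier results of these data known. In each comparison the text names up to 4 called mitotic and 3 called transport kinesins of largest change, and Kif11, Kif23, Kif5b and Kif3a always. Further kinesins, and those of the added carbon and late gamma comparisons, were named after their values were seen. Kif4-ps is a pseudogene copy of Kif4, so its values are uncertain. No 2 arrays held identical values.

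Replicate numbers were checked for pairing by correlating deviations from group means. For mca4 after carbon ions r lay between 0.14 and 0.38 in its 15 pairs of groups, above 0.1 in each, so numbers were taken to pair arrays there. For mmca after carbon ions 12 of 15 pairs passed that limit. Of the gamma tumours, scc7 had 2 of 3 pairs above it (median r = 0.228), nfsa 8 of 28 and mmca 7 of 21. In 8520 and in mca4 2 of 21 gamma pairs were above it. In simulated data for gamma day 1 of 8520 (12926 genes, 200 changed), 50% of changes of 0.5 and 91% of changes of 1 on the log2 scale were recovered, and 6.62% of called genes were false. The simulated noise was independent between genes, and groups were otherwise equal. In the data 50.9% of genes were called there, so these rates do not carry over to the calls above. The number of arrays limits the precision.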

Additional observations from a re-analysis of the deposited data

Results flagged for a closer look

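Each result here is a difference between 2 changes that passed its own limma test over all genes, and no explanation was tested. Between tumour kinds, the gamma day 1 change in the fibrosarcomas minus that in the mammary carcinomas was -1.25 for Kif23, -0.87 for Kif4, -0.87 for Kif20a, -0.80 for Kif11, -0.71 for Kif18a, -0.68 for Kif22, -0.67 for Kif18b, -0.55 for Kif20b, -0.40 for Kif2c and 0.33 for Kif21b. The limma adjusted p ran from 5.1e-06 for Kif4 to 0.045 for Kif2c. Each kind is 2 tumours, so these p-values do not measure the spread between tumours of a kind. Every mitotic change was lower in 8520 than in nfsa, and Kif2c of nfsa (0.16) lay above that of mmca (0.05).

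Between beams, the day 1 change after 30 Gy of carbon ions minus that after 30 Gy of gamma rays, over mmca and mca4, was -0.80 for Kif20b, -0.74 for Kif3a, -0.58 for Kif18a, -0.55 for Kif12, 0.29 for Kif5c and 0.30 for Kif3b. The limma adjusted p ran from 0.0029 for Kif3a to 0.040 for Kif3b. The dimmer Kif5c probe gave -0.31, so its direction is uncertain. Kif3a had a lower change after carbon ions in mca4 and a higher one in mmca. The Kif12 difference came from mmca and that of Kif5c from mca4. Beam and array experiment cannot be told apart.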

How the results depend on the processing

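Of the class results, 737 of 814 values under an alternative stayed near the main value, and 77 moved. With quantile normalization the mitotic median was -1.69 in mmca and -1.70 in mca4 at carbon day 20, 0.83 for 70 minus 30 Gy, -0.12 in mmca at 30 Gy day 9, -0.91 in mmca at 50 Gy day 19 and 0.41 in 8520 at day 8. The mitotic kinesins called were then 5 at carbon day 3 of mmca, 1 at gamma day 1 of nfsa and 7 at day 9 of nfsa. With missing values at the floor and quantile normalization the median was -0.55 between tumour kinds and 0.47 in 8520 at day 8. Calls were then 1 at carbon day 1 of mca4, 0 at carbon day 1 of mmca (limma; 1 at its main setting), 0 at carbon day 3 of mca4, 4 at carbon day 3 and 4 at hour 6 of mmca, 5 between tumour kinds, 1 at gamma day 1 of nfsa and 2 at its day 9. There Kif20a stood at 0.33 between tumour kinds and 2.81 in 8520, since its missing unirradiated value was set to the floor. With array weights the nfsa 50 Gy day 4 median was -1.37, and 3, 2, 5, 6 and 1 were called at carbon day 1 of mca4, carbon day 1 of mmca, carbon day 3 of mca4, carbon scc7 and gamma day 1 of nfsa. With the compared arrays alone these 5 counts were 3, 3, 5, 7 and 0, and 1 at mmca day 9. With 0 Gy day 1 as control at mmca day 9, the median was 0.25, 1 was called and Kif4-ps stood at -0.33 instead of 0.57. With 1 value per group, chosen after seeing the data, 0 were called in the 5 gamma day 1 comparisons (all-gene and unadjusted counts stand in the report). With pooled controls the mmca transport median was 0.021 and Kif1a 0.023. With the mean of all probes Kif6 in 8520 at day 8 was 0.60 instead of -0.45. Without 1 array the transport median of nrs1, 0.11, ran from -0.013 to 0.16. Leaving out each array in turn, medians ran from -2.03 to -1.85 at carbon day 20 of mmca, 0.87 to 1.11 in carbon nrs1, 0.47 to 0.75 in mca4 at day 11 and -1.75 to -1.34 in nfsa at 50 Gy day 4. Counts ran from 0 to 0 at carbon day 1 of mmca and day 3 of mca4, 4 to 4 at day 3 of mmca, 3 to 4 and 2 to 4 at hour 6 of mca4 and mmca, 2 to 6, 2 to 5 and 1 to 2 at gamma day 1 of mca4, mmca and nfsa, 2 to 5 in nfsa at day 9 and 2 to 5 in 8520 at day 8. The replicate block moved no class count or median past its limit, and 7 single-gene calls were gained and 3 lost with it, among them Kif1b of mca4 at carbon day 20 (adjusted p = 0.036 by limma). Groups of 2 or 3 arrays and dim probes limit what could be seen.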
